A study of Mus musculus with 10 samples.

Results

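Neuropeptides are short signalling peptides that neurons cut out of larger precursor proteins, store in dense-core granules and release beside the classical transmitters. The members described here are the 10 precursor genes Vip, Gal, Npy, Cartpt, Sst, Penk, Nts, Tac1, Adcyap1 and Calca, chosen by name as peptides of autonomic neurons. On the array they had 11 probes among 55681, that is 1 probe per gene except for Calca, which had 1 for each of its transcript variants. The expression test covered 9 of the 10 genes, among 22263 genes in all, because the Sst probe was too dim to enter it.

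RNA was measured in neuroblastomas of 10 transgenic mice, each tumour on its own array. The 5 ALK/MYCN tumours came from mice labelled ALK+/-, MYCN+/- on a C57BL/6 x 129X1/SvJ background, which carry ALK with the F1174L mutation, a receptor tyrosine kinase, together with a MYCN transgene. The 5 MYCN tumours came from mice labelled MYCN+/- on a 129X1/SvJ background, so MYCN is shared by both groups. All mice were untreated, no normal ganglion or adrenal gland was measured, and the promoters of the transgenes are not given in the sources used here. Genotype and strain thus cannot be told apart here. Each tumour RNA carried Cy3 and was hybridised with a Cy5-labelled reference, a commercial RNA pool from 11 murine cell lines, so a level below is tumour over reference on the log2 scale. A difference is the mean of the ALK/MYCN tumours minus that of the MYCN tumours on the same log2 scale. In bulk tumour RNA, fewer cells of a type and less RNA per cell cannot be told apart.

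Sympathetic neurons, from whose precursors neuroblastoma arises, typically pair noradrenaline with neuropeptide Y. A minority of sympathetic neurons, those that innervate sweat glands, use acetylcholine with vasoactive intestinal peptide, and parasympathetic and enteric neurons commonly contain that peptide too. Several of these precursor genes are textbook targets of cyclic AMP signalling through CREB, a transcription factor that binds the letters TGACGTCA or the shorter CGTCA, and galanin and vasoactive intestinal peptide are known to rise in sympathetic neurons whose axons are cut.

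The promoters of the 8 tested members with a RefSeq window are shown, so that those of genes that rose can be read beside those of genes that did not. They are the 200 bases before the start of transcription, from RefSeq on build GRCm38.p6, with CGTCA and its reverse complement TGACG in capitals. Vip, Cartpt, Adcyap1, Tac1 and Gal were higher in ALK/MYCN tumours, Nts was lower, and Calca and Npy did not pass the test.

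Vip promoter, chr10:5639018-5639217, plus strand: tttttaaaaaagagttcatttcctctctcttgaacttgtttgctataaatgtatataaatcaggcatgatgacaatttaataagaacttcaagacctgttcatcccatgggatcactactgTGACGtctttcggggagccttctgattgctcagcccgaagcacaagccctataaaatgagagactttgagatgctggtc
Cartpt promoter, chr13:99900684-99900883, minus strand: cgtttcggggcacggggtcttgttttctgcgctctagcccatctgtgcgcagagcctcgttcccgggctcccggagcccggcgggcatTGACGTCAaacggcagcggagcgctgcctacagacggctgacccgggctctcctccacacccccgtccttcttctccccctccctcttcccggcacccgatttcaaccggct
Adcyap1 promoter, chr17:93198817-93199016, plus strand: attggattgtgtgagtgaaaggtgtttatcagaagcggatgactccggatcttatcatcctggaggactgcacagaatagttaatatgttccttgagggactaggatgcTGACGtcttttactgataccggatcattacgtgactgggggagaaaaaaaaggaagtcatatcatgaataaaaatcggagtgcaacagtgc
Tac1 promoter, chr6:7554861-7555060, plus strand: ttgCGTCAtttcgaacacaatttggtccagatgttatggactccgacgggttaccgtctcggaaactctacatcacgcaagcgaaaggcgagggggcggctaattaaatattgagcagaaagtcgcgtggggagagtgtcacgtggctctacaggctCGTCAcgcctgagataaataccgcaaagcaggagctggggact
Gal promoter, chr19:3414545-3414744, minus strand: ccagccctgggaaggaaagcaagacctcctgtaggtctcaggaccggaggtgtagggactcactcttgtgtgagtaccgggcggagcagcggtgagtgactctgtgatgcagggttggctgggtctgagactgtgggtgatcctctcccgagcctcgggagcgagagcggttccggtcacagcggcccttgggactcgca
Nts promoter, chr10:102490419-102490618, minus strand: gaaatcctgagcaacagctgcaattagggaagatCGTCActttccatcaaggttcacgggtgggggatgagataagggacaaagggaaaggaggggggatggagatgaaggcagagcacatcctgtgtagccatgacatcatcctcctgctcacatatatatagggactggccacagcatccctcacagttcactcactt
Calca promoter, chr7:114636358-114636557, minus strand: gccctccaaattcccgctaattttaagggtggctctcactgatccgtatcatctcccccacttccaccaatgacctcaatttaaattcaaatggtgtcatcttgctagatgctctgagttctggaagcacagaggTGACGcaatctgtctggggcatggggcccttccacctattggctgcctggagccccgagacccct
Npy promoter, chr6:49822510-49822709, plus strand: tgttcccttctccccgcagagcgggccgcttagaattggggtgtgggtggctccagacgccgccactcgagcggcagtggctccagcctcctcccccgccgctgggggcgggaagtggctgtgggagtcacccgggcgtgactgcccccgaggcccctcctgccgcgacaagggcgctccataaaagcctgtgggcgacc

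The letters CGTCA, searched on both strands from 250 bases before to 50 bases after each start, occurred in the windows of 8 of the 9 members with a RefSeq window, against 20.8% of all 32851 windows. Their positions relative to the start were -79 in Vip, -91 in Adcyap1, -65 in Calca, -166 in Nts, 20 in Gal, and -197 and -43 in Tac1. Adcyap1 has a further RefSeq start, from which the same match stood at -242. The 200 bases before that start (chr17:93198968-93199167) hold no match. The full TGACGTCA, which contains CGTCA on both strands, stood at -112 in Cartpt and at -48 in Sst and in 1.79% of all windows. Npy was the member without a match, and Penk had no window. The 8 of 9 counts genes, while the 20.8% counts windows. The match was present in Nts and Calca, which were not higher in ALK/MYCN tumours, as well as in the genes that were. Whether such matches have a part in the differences was not tested. CACGTG, the letters bound by MYC and MAX, occurred in the Tac1 window alone and in 7.15% of all windows. A match is a run of letters and not a measured binding site.

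The array probes of Cartpt, Gal, Npy and Nts lie in coding sequence and are shown because the values of these genes rest on these 60 bases. Their positions are those of the array files on build mm9, and the Cartpt and Npy probes each cross an intron.

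Cartpt probe, chr13:100668967-100669956, minus strand: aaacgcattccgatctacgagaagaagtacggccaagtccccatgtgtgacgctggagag
Gal probe, chr19:3411143-3411202, minus strand: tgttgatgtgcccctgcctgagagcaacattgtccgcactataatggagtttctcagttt
Npy probe, chr6:49773743-49777505, plus strand: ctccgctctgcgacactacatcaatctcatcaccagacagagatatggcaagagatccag
Nts probe, chr10:101944967-101945026, minus strand: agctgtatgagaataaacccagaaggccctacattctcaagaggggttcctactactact

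The Cy3 channel was well above background at 53.8% to 58.7% of probe spots, and precision is limited by the number of arrays. The tumours carried the label of their tissue: Hand2 and Dbh, which mark the sympathetic lineage, were above background in all 10, with Hand2 at 5.44 ± 0.16 in ALK/MYCN tumours, against 5.42 ± 0.21 in MYCN tumours (SD, 5 tumours each). Neither passed the test, but 4 of the 11 sympathetic and chromaffin markers were higher in ALK/MYCN tumours, where 14.2% of all genes were. Markers of other tissues stood out in single tumours, those of adrenal cortex in ALK/MYCN 3 and of adipocytes in MYCN 4 and ALK/MYCN 3. Skeletal muscle markers were highest in MYCN 2 and MYCN 1 and also differed by group. Their mean, centred per gene, was -1.50 to -0.78 in ALK/MYCN tumours, against -0.50 to 3.57 in MYCN tumours. Of 5 measured, 2 passed as lower in ALK/MYCN tumours, where 12.2% of all genes did. The part of muscle in the results was not tested. Among the 9 tested members, ALK/MYCN 4 was the lowest of its group in 7, and MYCN 3 the highest of its group in 5. Values without these 2 tumours are therefore given beside the results they move.

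Of the 9 members tested, 5 were higher in ALK/MYCN tumours, 1 was lower and 3 did not pass. The test was limma's, with Benjamini-Hochberg adjustment over 22263 genes at 0.05, and over all of these 26.5% passed, 14.2% higher and 12.2% lower. The genes higher in ALK/MYCN tumours were Vip, Gal, Adcyap1, Tac1 and Cartpt, and the lower one was Nts. Npy, Penk and Calca did not pass. In 5 of the 9 the groups did not overlap, Vip, Gal, Adcyap1, Cartpt and Nts, as in 19.9% of all genes. Differences of at least 1 among the called genes were found in 4 members, Vip, Gal, Adcyap1 and Tac1, against 2.24% of all genes. The median difference of the 9 was 0.89, against -0.0036 over all genes. With probes above background on all arrays, 3 of 6 members were higher and 1 was lower, where 2984 and 2582 of 19397 genes were. Members were chosen with earlier results of these data known, so their counts beside those of all genes are a description only.

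**Figure D1:**
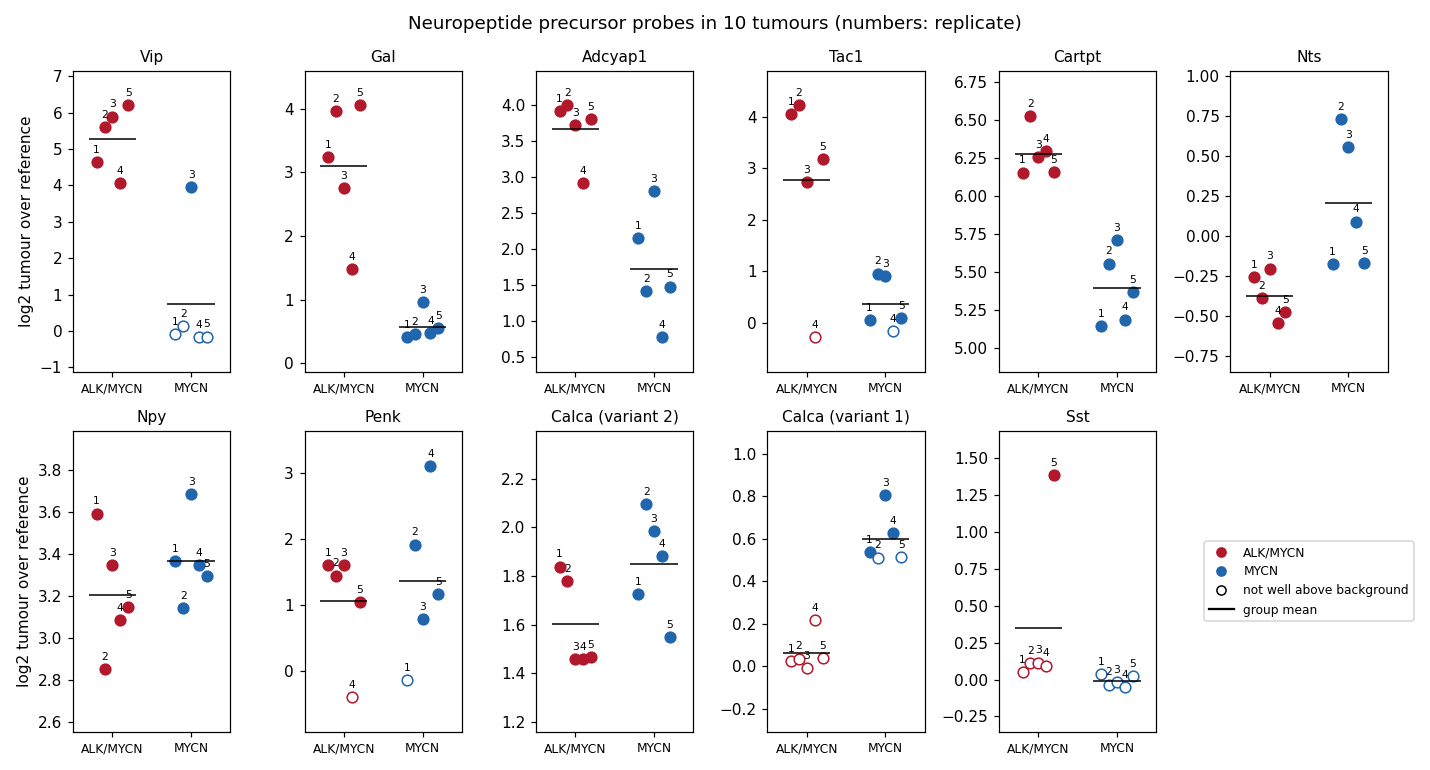
Log2 ratio of tumour over reference (vertical axes, each with its own scale) for the 11 probes of the 10 precursor genes in 5 ALK/MYCN (red) and 5 MYCN (blue) tumours, with replicate numbers beside the points, open circles where the probe was not well above background and a line at each group mean. Vip, Gal, Adcyap1 and Cartpt separate the groups, while MYCN 3 stands out at 3.96 in Vip and ALK/MYCN 5 at 1.38 in Sst.

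Vip encodes the precursor of vasoactive intestinal peptide, a vasodilator and secretagogue that also yields the related peptide PHI. Its probe (chr10:4699238-4699297, mm9) read 4.65, 5.61, 5.89, 4.06 and 6.20 in ALK/MYCN tumours 1 to 5, against -0.09, 0.15, 3.96, -0.16 and -0.15 in MYCN tumours 1 to 5. The background-subtracted Cy3 signal was 1450 to 6983 in ALK/MYCN tumours, against 1017 in MYCN 3 and -0.70 to 14.7 in the other 4 MYCN tumours. Every ALK/MYCN tumour thus had Vip RNA well above background, and so did MYCN 3, just below the lowest ALK/MYCN tumour. The difference of 4.54 ± 0.80 (SE, limma adjusted p = 0.00365) passed with any 1 tumour left out. The 5 ALK/MYCN arrays alone were enough for the probe to enter the test, so these calls are not taken as support by themselves. With no filter on dim probes the limma adjusted p was 0.00455. The size of the difference is uncertain, because the probe was well above background on 1 of 5 MYCN arrays, and it was 7.18 in the scanner-processed signals. Without MYCN 3 every remaining MYCN tumour was at background, and Vip was then at least 40.4-fold higher in the ALK/MYCN tumours, a bound taken within the Cy3 channel, which held every tumour, as dyes were not swapped. The floor of such a bound is the lowest Cy3 signal among probes well above background, so it can differ from the bright probe in dye bias.

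Adcyap1 encodes PACAP, a peptide of the same family as vasoactive intestinal peptide and a cotransmitter, with acetylcholine, of preganglionic neurons at the adrenal medulla. The probe (chr17:93604401-93604460, mm9) gave 3.92, 4.00, 3.73, 2.92 and 3.81 in the ALK/MYCN tumours, and 2.15, 1.42, 2.81, 0.78 and 1.48 in the MYCN tumours. It was above background on all 10 arrays. The groups did not overlap, though MYCN 3, the highest of its group, lay just under ALK/MYCN 4, the lowest of its own. Adcyap1 was higher by 1.95 ± 0.36 (SE, limma adjusted p = 0.00423). It was higher by 4.04 in Cy3 alone, and the difference of 0.79 in the scanner-processed ratios did not pass (limma adjusted p = 0.304). Its Cy5 signal differed too, as given below for Cartpt.

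Gal encodes galanin, a peptide strongly induced by nerve injury. Its probe (chr19:3411143-3411202, mm9), the Gal sequence above, read 3.24, 3.96, 2.75, 1.49 and 4.05 in ALK/MYCN tumours, against 0.42, 0.46, 0.96, 0.48 and 0.56 in MYCN tumours. The Cy3 signal reached 27046 in ALK/MYCN 5 and was 1408 in ALK/MYCN 4, and it ran from 534 to 905 in MYCN tumours. The MYCN tumours were close together and all below ALK/MYCN 4, the lowest ALK/MYCN tumour, which itself lay well under the other 4. Gal was higher by 2.52 ± 0.43 (SE, limma adjusted p = 0.00298).

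Tac1 encodes the precursor of substance P and neurokinin A, peptides of sensory and enteric neurons. Its probe (chr6:7512893-7512952, mm9) read 4.05, 4.22, 2.73, -0.27 and 3.19 in ALK/MYCN tumours, and 0.05, 0.96, 0.91, -0.16 and 0.09 in MYCN tumours. The groups overlapped, since ALK/MYCN 4 was the lowest of all 10 tumours, with a Cy3 signal of 5.87 against 575 to 1844 in the other 4 ALK/MYCN tumours. The difference was 2.41 ± 0.75 (SE, limma adjusted p = 0.0394), and it was 3.18 without ALK/MYCN 4 (limma adjusted p = 0.00129). It did not pass when any of the other 9 tumours was left out (adjusted p of 0.0529 to 0.0860 in limma), nor under 13 of 24 alternatives in all.

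Cartpt encodes CART, a peptide of sympathetic, enteric and brain neurons. The probe (chr13:100668967-100669956, mm9) read 6.15, 6.53, 6.26, 6.30 and 6.16 in ALK/MYCN tumours, against 5.14, 5.56, 5.71, 5.19 and 5.37 in MYCN tumours. The Cy3 signal was 72275 to 139731 in ALK/MYCN tumours and 4816 to 13942 in MYCN tumours. The groups were apart in both measures, with tumours of a group close together. Cartpt was higher by 0.89 ± 0.12 as a ratio (SE, limma adjusted p = 0.00116), and by 3.61 ± 0.32, or 12.2-fold, in the Cy3 channel tested alone (limma adjusted p = 1.95e-04). The size of the ratio difference depended on the background correction. It was 0.63 with an offset of 16 in place of 50, and 0.085 in the scanner-processed ratios, where it did not pass (limma adjusted p = 0.552).

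The reference channel of this probe differed between the groups as well. Per the labels the Cy5 RNA was the same pool on every array, yet the Cy5 signal of the Cartpt probe was 1067 to 2293 on the ALK/MYCN arrays, against 74.7 to 243 on the MYCN arrays. It was 1.48% to 1.64% of the Cy3 signal on the ALK/MYCN arrays and 1.55% to 1.75% on the MYCN arrays. Tested alone, Cy5 differed by 3.13 ± 0.27 for Cartpt (SE, limma adjusted p = 0.00101) and by 2.00 ± 0.36 for Adcyap1 (limma adjusted p = 0.0354), where 0.651% of all genes passed. These were 145 genes, of which 126 also passed in Cy3 alone, 125 of them in the same direction. The Cy5 signal of Npy, too, stayed between 5.70% and 7.59% of Cy3 on ALK/MYCN arrays and between 5.76% and 7.73% on MYCN arrays. The difference of Npy in the ratio did not pass.

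The Gal reference signal was 378 to 1472 on ALK/MYCN arrays, and 378 to 457 on MYCN arrays, a difference of 0.81 that did not pass in limma (adjusted p = 0.312). In contrast, the Cy5 signal of Vip was never above background and was 0.18% to 0.55% of Cy3 in ALK/MYCN tumours, and that of Tac1 was 17.6 to 34.8 on ALK/MYCN arrays and 21.0 to 35.3 on MYCN arrays. The ratio gave a smaller difference than Cy3 alone, at 0.89 against 3.61 for Cartpt, 1.95 against 4.04 for Adcyap1 and 2.52 against 3.27 for Gal. For Vip and Tac1 they were closer, at 4.54 against 4.86 and 2.41 against 2.51. In the scanner-processed ratios, Cartpt differed by 0.085 and Adcyap1 by 0.79, and neither passed (limma adjusted p = 0.552 and 0.304). Why the reference signal varied was not tested.

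**Figure D2:**
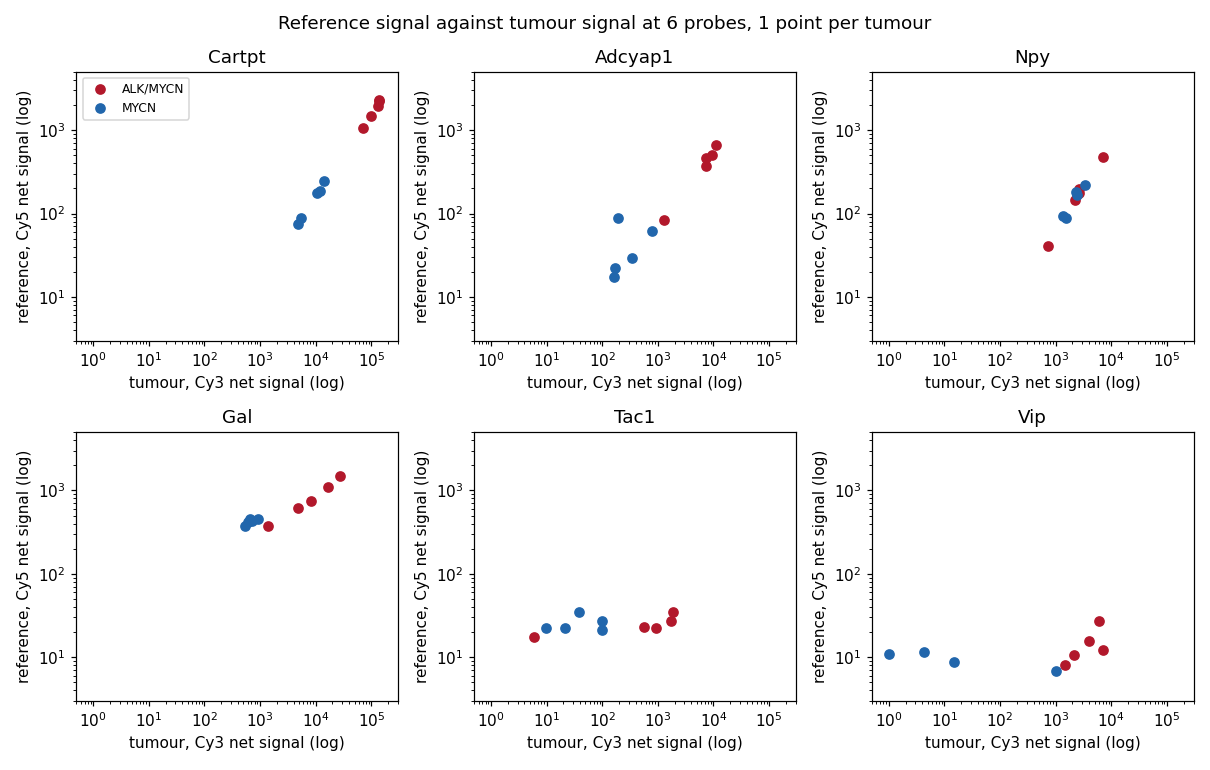
Background-subtracted Cy5 signal of the reference (vertical, log scale) against Cy3 signal of the tumour (horizontal, log scale) at 6 probes, 1 point per ALK/MYCN (red) or MYCN (blue) tumour; the MYCN tumour whose Vip Cy3 signal was -0.70 cannot be drawn. The points of Cartpt and Npy lie along a line, so that Cy5 was a near-constant share of Cy3, while the Tac1 points stay between 17.6 and 35.3 in Cy5 at every Cy3 signal.

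**Figure D3:**
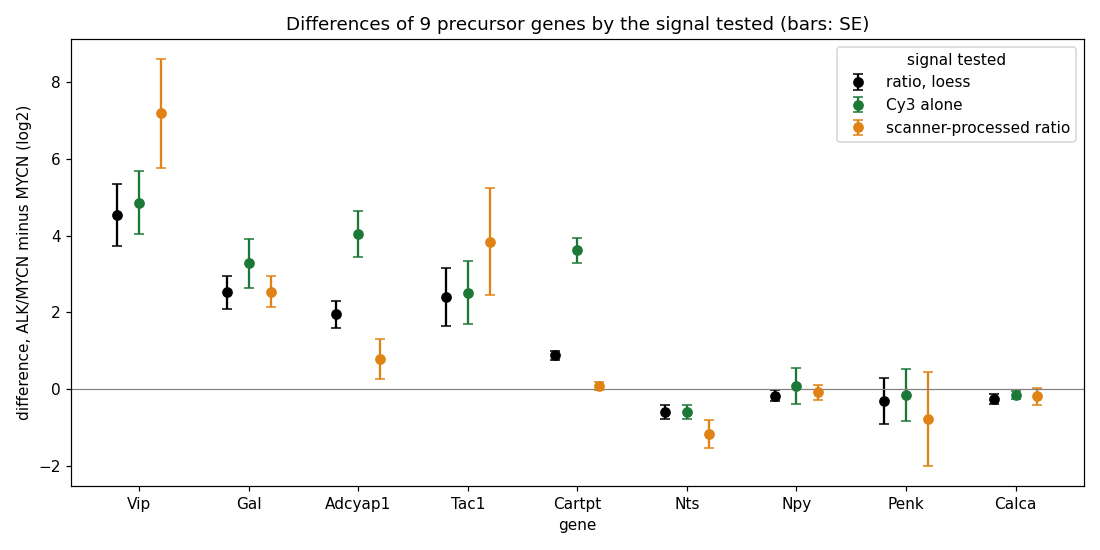
Difference between ALK/MYCN and MYCN tumours (vertical, log2) with its standard error for the 9 tested precursor genes, from the loess-normalised ratio (black), Cy3 alone (green) and the scanner-processed ratio (orange). Cartpt is at 0.89, 3.61 and 0.085 in these, and Vip, Gal and Tac1 are above 2 in each.

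Nts encodes the precursor of neurotensin and neuromedin N. Its probe (chr10:101944967-101945026, mm9), printed above, read -0.26, -0.39, -0.20, -0.55 and -0.48 in ALK/MYCN tumours, against -0.18, 0.73, 0.55, 0.09 and -0.17 in MYCN tumours. All signals were low, with Cy3 of 32.7 to 63.8 in ALK/MYCN tumours and 47.4 to 180 in MYCN tumours. The groups only just failed to overlap in the ratio, since MYCN 1 and MYCN 5 were at the level of ALK/MYCN 3. Nts fell by 0.58 ± 0.18 (SE, limma adjusted p = 0.0397). Leaving out 1 tumour at a time, the call was lost for 7 of 10 (adjusted p of 0.0567 to 0.0858 in limma), and it was lost under 13 of 25 alternatives in all.

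Npy, whose peptide is the cotransmitter of noradrenaline, was above background in all 10 tumours. The probe (chr6:49773743-49777505, mm9) read 3.59, 2.85, 3.35, 3.09 and 3.15 in ALK/MYCN tumours, against 3.37, 3.14, 3.69, 3.35 and 3.30 in MYCN tumours. The Cy3 signal was 720 to 7146 in ALK/MYCN tumours and 1343 to 3378 in MYCN tumours. The groups overlapped in both measures, with ALK/MYCN 2 the lowest of all. The difference was -0.16 ± 0.14 with a 95% interval of -0.48 to 0.16 (limma adjusted p = 0.436). The sign turned to 0.078 ± 0.47 (SE) in Cy3 alone and to 0.046 with centring on spike-in controls. The Cy5 signal of this probe followed Cy3, as given above, so the narrow interval of the ratio does not show that Npy was unchanged.

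Penk encodes the precursor of the enkephalins, opioid peptides that adrenal chromaffin cells release with catecholamines. Its probe (chr4:4060724-4060783, mm9) gave 1.60, 1.44, 1.60, -0.40 and 1.04 in ALK/MYCN tumours, and -0.14, 1.91, 0.78, 3.11 and 1.16 in MYCN tumours. The spread lay within the groups, where ALK/MYCN 4 and MYCN 1 were not above background and MYCN 4 was the highest of all. The difference was -0.31 ± 0.59, with an interval of -1.63 to 1.01 (limma adjusted p = 0.737). It was 0.055 without ALK/MYCN 4 and 0.13 without MYCN 4.

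Calca is spliced either to calcitonin, the hormone of thyroid C cells, or to CGRP, the form that neurons mainly make. The probe for transcript variant 2 (chr7:121775204-121775263, mm9) read 1.84, 1.78, 1.46, 1.46 and 1.47 in ALK/MYCN tumours, and 1.73, 2.10, 1.98, 1.88 and 1.55 in MYCN tumours. These overlapped, and the difference of -0.25 ± 0.12 did not pass, with a 95% interval of -0.52 to 0.03 (limma adjusted p = 0.166). The probe for variant 1, upstream of it on the minus strand (chr7:121776948-121777007, mm9), was not well above background in any ALK/MYCN tumour and was so in 3 of 5 MYCN tumours. Its ratios were -0.01 to 0.22 in ALK/MYCN tumours, against 0.51 to 0.81 in MYCN tumours. It was excluded by the filter on dim probes, and with all 55681 probes fitted its limma adjusted p was 0.00159. By a bound computed as for Vip, it was at least 1.23-fold lower in ALK/MYCN tumours. The MYCN mean in this bound includes MYCN 2 and MYCN 5, which were themselves not well above background, so it is less firm than that of Vip.

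Sst encodes somatostatin, an inhibitory peptide of enteric, sympathetic and endocrine cells. Its 60-base probe was spotted 10 times (chr16:23889776-23889835, mm9), and the mean ratio was 0.05, 0.11, 0.11, 0.09 and 1.38 in ALK/MYCN tumours, against 0.04, -0.03, -0.02, -0.05 and 0.02 in MYCN tumours. ALK/MYCN 5 was the only tumour above background. There all 10 spots were, with Cy3 signals of 136 to 198, whereas the spot means of the other tumours were 2.11 to 14.7. Sst was left out of the test by the filter, and with all probes fitted it did not pass (limma adjusted p = 0.381).

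The members did not vary alike within a group. Within the ALK/MYCN tumours, ALK/MYCN 4 was the lowest in Vip, Gal, Adcyap1, Tac1, Penk, Nts and Calca but ranked at 2 of 5 in Cartpt and 4 of 5 in Npy. Its sympathetic and chromaffin markers did not run low: the mean of 11 such genes, centred per gene, was 0.76 there, against -0.0095 to 0.33 in the other ALK/MYCN tumours and -0.50 to -0.15 in MYCN tumours. Within the MYCN tumours, MYCN 3 was the highest in Vip, Gal, Adcyap1, Cartpt and Npy. Without both, the differences were 3.02 for Gal, 2.41 for Adcyap1, 3.31 for Tac1 and 0.96 for Cartpt, which passed, and -0.45 for Nts, which did not (limma adjusted p = 0.158). Vip passed too and was at least 49.7-fold higher.

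**Figure D4:**
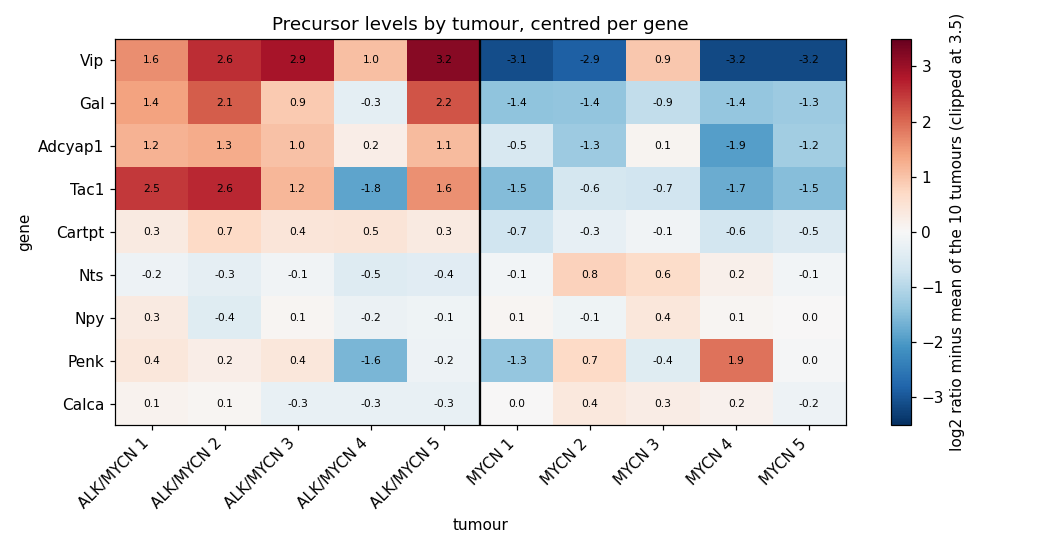
Log2 ratio of each of the 9 tested precursor genes (rows) in the 5 ALK/MYCN and 5 MYCN tumours (columns), minus the gene's mean over the 10 tumours, in colour and as printed numbers. ALK/MYCN 4 is the lowest of its group in Vip, Gal, Adcyap1 and Tac1, and MYCN 3 is the one MYCN tumour above the mean in Vip.

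The arrays lay on 3 slides, each with tumours of both groups. Within slides 1, 2 and 3 the difference was 3.54, 2.01 and 3.39 for Gal, and 1.85, 2.75 and 1.91 for Adcyap1. The 1 MYCN tumour on slide 1 and the 1 on slide 2 were at background in Vip, which was at least 50.9-fold and 31.0-fold higher there, and it differed by 4.88 on slide 3. Tac1 differed by 4.17 on slide 1 and 2.53 on slide 3, while on slide 2 the 1 MYCN tumour was not above background in it. It was 1.38, 1.05 and 0.62 for Cartpt and -0.21, -0.43 and -0.85 for Nts. The sign of these 6 genes was the same on every slide, which is fixed in advance for the 5 without overlap of the groups. Penk was -2.17 on slide 2 and -0.25 on slide 3, and above 0 on slide 1, where the MYCN tumour was at background. With slide as a fixed block, Vip, Gal, Adcyap1, Tac1 and Cartpt passed and Nts did not (limma adjusted p = 0.110). With slide as a random block Nts passed as well (limma adjusted p = 0.0370).

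The genes with the profile most like that of a called member, by root mean square distance over the 10 centred ratios, were found among all tested genes. For Vip they were Tlx2, a homeobox gene of enteric and autonomic neurons, at 0.78, Ebf3 at 1.08 and the intergenic transcript BRN1-A at 1.12, where the Vip profile itself has a root mean square of 2.60. For Gal and for Tac1 the nearest was the collagen gene Col24a1, at 0.34 and 0.58, and the next for Tac1 was Gal at 0.70. For Adcyap1 it was Mdga1 at 0.36, for Cartpt Eml1 at 0.12 and for Nts Runx1 at 0.13. All 10 points of a profile share their arrays, so this is a description with no test.

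Receptors for these peptides were measured for 17 of the 31 listed genes, of which 6 were higher in ALK/MYCN tumours, 2 were lower and 9 did not pass, against 14.2% higher and 12.2% lower over all genes. The median difference was 0.084. With probes above background on all arrays, 3 of 12 were higher and 1 was lower, and 3 of 17 were higher with the replicate number as a block. Vipr2, encoding a receptor for both vasoactive intestinal peptide and PACAP, fell to -0.19 ± 0.22 in ALK/MYCN tumours, against 0.87 ± 0.54 in MYCN tumours (SD, 5 tumours each). The difference was -1.06 ± 0.24 (SE, limma adjusted p = 0.0104). Vipr1, its relative, differed by -0.26 and did not pass (limma adjusted p = 0.232). The PACAP receptor gene Adcyap1r1 rose by 0.38 ± 0.12 (limma adjusted p = 0.0369). The somatostatin receptor gene Sstr1, not well above background in any MYCN tumour, exceeded the MYCN level by at least 1.61-fold in ALK/MYCN tumours. It entered the test through the ALK/MYCN tumours alone, so its call, which is among the 6, is not taken as support and only the bound is given. Npy2r is also among the 6, and its 5 ALK/MYCN tumours alone met the filter. The µ opioid receptor gene Oprm1 rose by 0.41 ± 0.07 and the neurokinin receptor gene Tacr2 by 0.37 ± 0.07 (limma adjusted p = 0.00380 and 0.00502). Npy2r, for neuropeptide Y, rose by 1.89 ± 0.51, a size that is uncertain because it was well above background in 2 of 5 MYCN tumours, and Ramp2, which pairs with the calcitonin receptor family, fell by 1.31 ± 0.31 (limma adjusted p = 0.0216 and 0.0122). Adcyap1r1, Vipr1, Npy2r and Ramp2 were chosen after their values were seen. Ramp2 is also expressed in endothelium, and 4 of 6 endothelial markers were lower in ALK/MYCN tumours, at centred means of -0.66 to 0.12 against -0.0010 to 0.84 in MYCN tumours, a part in the result that was not tested.

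Granule proteins, which store and release the peptides, were measured for 17 of 18 genes. Of these, 10 were higher, 1 was lower and 6 did not pass, with a median of 0.61, and 14.2% of all genes were higher. The lower call, that of Baiap3 (limma adjusted p = 0.0498), was lost under most alternatives. Cadps, which primes granules for release, was at 3.84 ± 0.32 in ALK/MYCN tumours, against 2.48 ± 0.18 in MYCN tumours (SD, 5 tumours each), a rise of 1.36 ± 0.15 (SE, limma adjusted p = 5.26e-04). Hid1 and Ccdc186, which act in granule formation, rose by 0.74 ± 0.12 and 0.61 ± 0.08, and the calcium sensor gene Syt7 by 0.72 ± 0.13 (limma adjusted p = 0.00205, 0.00114 and 0.00385). The granin gene Scg2, chosen after its value was seen, rose by 2.30 ± 0.59 (limma adjusted p = 0.0177). The granin genes Chga and Chgb did not pass, at differences of -0.09 and -0.37.

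Of the enzymes that turn precursors into peptides, 3 of 14 were higher and 2 lower, where 14.2% and 12.2% of all genes were. Their median was 0.030, and -0.013 in the scanner-processed signals. Cpe, the carboxypeptidase that trims the cut precursor, rose by 0.79 ± 0.10 (SE, limma adjusted p = 6.87e-04). Pam, which amidates the end of many peptides, including vasoactive intestinal peptide, rose by 0.53 ± 0.16, and Qpct, which forms the pyroglutamate end of peptides such as neurotensin, by 0.81 ± 0.18 (limma adjusted p = 0.0375 and 0.00907). Pcsk4, a convertase best known from germ cells, fell by 0.60 ± 0.12 (limma adjusted p = 0.00604). The convertase gene Pcsk2 differed by -0.09 and did not pass, and Pcsk1 was not among the genes measured. Pcsk2, like Chga and Chgb, was chosen after its value was seen.

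Enzymes that break peptides down were lower or did not pass, with none of 9 higher, 3 lower and a median of -0.31, beside 12.2% of all genes lower. With the mean over a gene's probes, 1 was lower and the median was -0.17. Ece2 fell by 0.69 ± 0.12, Nln, also known as neurolysin, by 0.46 ± 0.08 and Anpep by 0.89 ± 0.16 (SE, limma adjusted p = 0.00330, 0.00408 and 0.00429). This list had 1 gene higher and 2 lower when arrays were centred on spike-in controls. Anpep is also expressed by myeloid cells, and 4 of 6 macrophage markers were lower, at centred means of -0.70 to -0.14 in ALK/MYCN tumours, against -0.39 to 0.91 in MYCN tumours. Their part in the result was not tested.

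Among 24 measured precursor genes of other neuropeptides and peptide hormones, 8 were higher, 1 was lower and 15 did not pass, with 14.2% and 12.2% of all genes higher and lower, and the median was 0.19. The count of higher genes was 5 without ALK/MYCN 1, 2 or 5 or MYCN 4, and the lower call was lost in 7 of the 10 cases where 1 tumour was left out. Sct, the precursor of secretin, a relative of vasoactive intestinal peptide and PACAP, was at 3.20 ± 0.33 in ALK/MYCN tumours, against 1.32 ± 0.15 in MYCN tumours (SD, 5 tumours each). It rose by 1.88 ± 0.15 (SE, limma adjusted p = 1.40e-04). Ghrh, another member of that peptide family, rose by 1.28 ± 0.22 and the dynorphin precursor gene Pdyn by 1.46 ± 0.23 (limma adjusted p = 0.00287 and 0.00196). Oxt, for oxytocin, rose by 0.40 ± 0.07 (limma adjusted p = 0.00293). Pmch was the gene called lower, by 0.21 (limma adjusted p = 0.0361), at mean ratios of 0.014 in ALK/MYCN and 0.23 in MYCN tumours. It was above background in 1 of 5 ALK/MYCN and all 5 MYCN tumours. The MYCN tumours alone met the filter, so the call of Pmch is not taken as support. The 5 lists name genes of the pathway and get no test as lists.

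**Figure D5:**
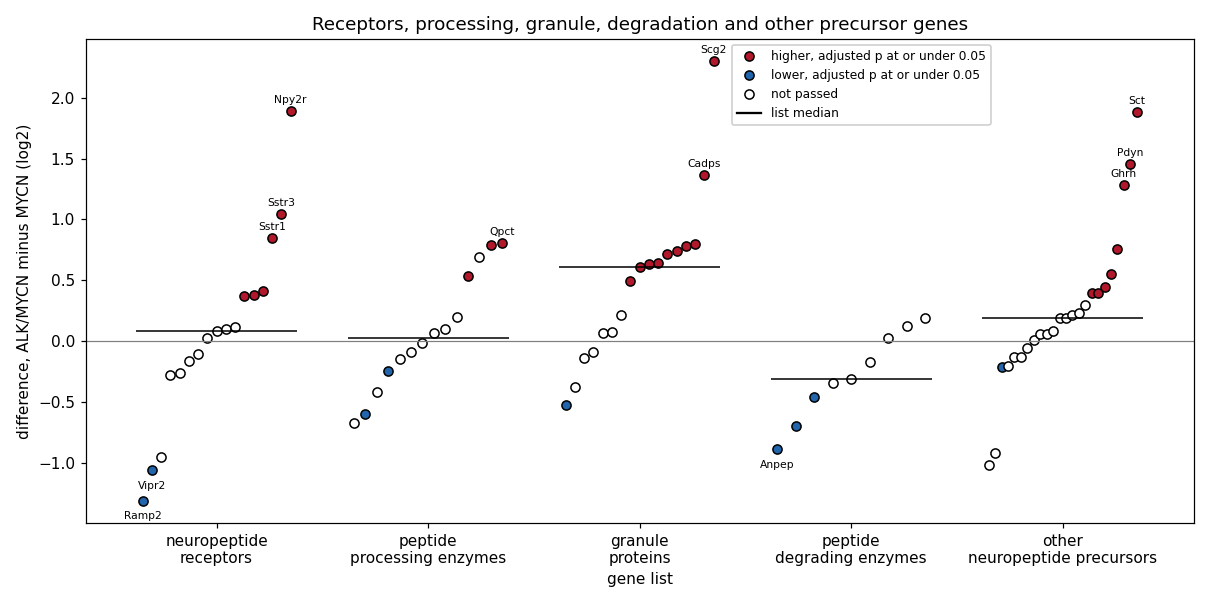
Difference between ALK/MYCN and MYCN tumours (vertical, log2) for each measured gene of the 5 lists, sorted within a list, filled where limma's adjusted p passed (red higher, blue lower in ALK/MYCN) and with a line at each list's median; names are given for passed genes more than 0.8 from 0. Granule proteins have the highest median, 0.61, and peptide-degrading enzymes the lowest, -0.31.

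Over all genes, 14.2% were higher and 12.2% lower, beside which the counts of markers here are to be read. Of 11 sympathetic and chromaffin markers, 4 were higher and none lower in ALK/MYCN tumours. Of 7 measured cholinergic markers out of 8, 4 were higher, none was lower, and the centred means were 0.19 to 1.26 in ALK/MYCN tumours against -0.97 to -0.36 in MYCN tumours. Chat, the defining enzyme of acetylcholine synthesis, was above background in 5 ALK/MYCN tumours and 1 MYCN tumour. It met the filter through the ALK/MYCN tumours, so its call (limma adjusted p = 0.0491) is not taken as support. Slc18a3 and Ache, also called, were each above background in 3 of 5 MYCN tumours. Nos1, Hmx3 and Prima1 did not pass, at differences of 0.021, -0.034 and -0.17. Of 5 measured Schwann and glial markers out of 8, 4 were higher, at centred means of 0.33 to 1.28 in ALK/MYCN tumours against -1.02 to -0.26 in MYCN tumours, and Erbb3 and Gfap did not enter the test. Foxd3, among the 4, was above background in 2 of 5 MYCN tumours. Sensory markers were measured for 3 of 8 genes, 1 higher and 1 lower, with overlapping means of -0.12 to 0.46 in ALK/MYCN tumours and -0.30 to 0.20 in MYCN tumours. The part of these cell types in the differences of the peptide genes was not tested.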

How the data were processed

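Spot intensities of both channels, deposited by the authors for 10 two-colour Agilent arrays, were extracted with Feature Extraction 10.7.3.1 on build mm9, per the file headers. The deposited value table, a log2 ratio of scanner-processed Cy3 over Cy5 within 5.01e-04, had column medians of -0.186 to -0.035 and served only as a check. Mean signals were background-corrected (normexp, offset 50), normalised by loess within arrays and turned to tumour over reference. Flagged outlier spots (177 to 345 per array) were left out, and no spot was saturated. Of the probes, 30857 passed a filter on Cy3 signal (well above background in no fewer than 5 of 10 arrays), and a gene was taken by its brightest probe. Groups were compared with limma 3.58.1 in R 4.3.3, two-sided, with Benjamini-Hochberg adjustment, and the procedure was checked on simulated data. Named genes are all members, up to 4 called genes of smallest p per list, and the 3 nearest profiles of each called member. Printed neighbours are a part of these. Other genes named were chosen after their values were seen. Members and lists were chosen with earlier results of these data known. Alternatives covered background, normalisation, filters, slide, replicate number and left-out tumours. Per the labels each tumour is a biological replicate.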

Additional observations from a re-analysis of the deposited data

Results flagged for a closer look

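Within a group of 5 tumours, a value was noted when its gap to the nearest other exceeded 0.710 of the group's whole range, the 95% limit of Dixon's test. Of 22 groups (11 probes in 2 genotypes), 6 held such a tumour. Chance gives about 1 in 20 for independent groups of normal spread. These probes share their tumours and some were near background, so the count is a description only. Vip in MYCN 3 was 3.96, with the next MYCN tumour at 0.15, and Gal in the same tumour was 0.96, with the next at 0.56. In ALK/MYCN 4, Adcyap1 was 2.92 (next 3.73), Penk was -0.40 (next 1.04) and the dim Calca variant 1 probe was 0.22 (next 0.040). Sst in ALK/MYCN 5 was 1.38, with the next ALK/MYCN tumour at 0.11. The tumours concerned are therefore ALK/MYCN 4 in 3 cases, MYCN 3 in 2 and ALK/MYCN 5 in 1.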

How the results depend on the processing

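Vip and Gal passed, with the same sign, under every alternative that could give them a value (24 and 25), with differences of 3.89 to 7.18 and 2.28 to 3.27. Keeping only probes above background on all arrays gave Vip no value, and its other calls carry the limit given with its values. Adcyap1 and Cartpt passed under 24 of 25 each, and the scanner-processed signals were the exception. There 3 members passed, Vip, Gal and Nts, against 6 in the loess ratios. Nts also lost its call with median centring, spike-in centring, no filter and slide as a fixed block, Tac1 with an offset of 16, no filter and the scanner-processed signals, and both without ALK/MYCN 3, MYCN 2 and MYCN 5. The difference of Npy turned to 0.078 in Cy3 alone and 0.046 with spike-in centring, without passing in either (limma adjusted p = 0.920 and 0.836). That of Penk ran from -0.68 to 0.13 when 1 tumour was left out at a time, and it was above 0 without ALK/MYCN 4 and without MYCN 4. With 1 tumour left out, 4 or 5 members, 4129 to 5431 genes and 5327 to 7072 probes passed. Against 5892 genes and 7684 probes with all tumours, 3685 genes and 4831 probes passed without ALK/MYCN 3, MYCN 2 and MYCN 5, and 3772 genes and 4935 probes without ALK/MYCN 4 and MYCN 3, a pair chosen after seeing the data. These had fewer tumours. The split of all called genes was 3169 higher and 2723 lower, against 4454 and 1349 with median centring and 7039 and 928 with spike-in centring, which moved the median of all genes to 0.21. Among the lists, 4 other precursor genes were higher in the scanner-processed signals and 12 after centring on spike-in controls, against 8, and 6 processing enzymes were higher with spike-in centring, against 3. Without ALK/MYCN 3, MYCN 2 and MYCN 5, 3 receptors and 1 processing enzyme were higher, against 6 and 3. The cause of these changes was not tested. With the replicate number as a block, 4616 genes and the same 6 members passed, 3 receptors were higher, against 6, and the lower calls among granule proteins and other precursors were lost. Same-numbered tumours correlated at -0.091 to 0.34 in their deviations, above 0.1 in 1 of 5 pairs, so the numbers are not taken to pair the tumours. Signal over background limits Vip, Tac1, Penk, Sst and the Calca variant 1 probe, which were not well above background in some or most tumours.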
